A study of Mus musculus with 6 samples.

Results

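The genes described here are 10 that neurons or Schwann cells are known to induce after a nerve is injured. They were chosen by symbol: the transcription factor genes Atf3, Jun and Sox11, the axon growth and neuronal injury genes Gap43, Sprr1a and Ecel1, the neuropeptide genes Gal and Npy, and the ligand genes Gdnf and Lif. All 10 were found among the 24062 gene symbols measured. RNA was sequenced from dissected auditory nerves of young adult mice, 3 of them Vcan knockout and 3 wildtype, all labelled C57BL/6 (C57BL/6J for the wildtype mice in the submitters' design text). Each library held RNA from both cochleae of 1 mouse, so p-values measure the spread between mice together with that of dissection and library preparation. Vcan encodes versican, a chondroitin sulfate proteoglycan of the extracellular matrix. The knockout allele, the cells it acts in and the number of lines are not given in the labels.

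When a peripheral axon is cut or crushed, kinase signalling along the axon reaches the neuron's nucleus and switches on a set of transcription factors, among them ATF3, c-Jun and SOX11. These factors in turn raise growth genes such as Gap43 and Sprr1a and neuropeptides such as galanin and neuropeptide Y. In the nerve beyond the injury, Schwann cells also raise c-Jun, leave the myelinating state and secrete GDNF, LIF and other factors that keep neurons alive and attract axons. The auditory nerve holds the axons and cell bodies of spiral ganglion neurons and the glia around them, so both arms of the response could be seen in this tissue. In bulk tissue, fewer cells of a type and less RNA per cell cannot be told apart.

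c-Jun and ATF3 bind DNA at AP-1 sites (TGANTCA) and at cyclic AMP response elements and close variants (TGACGTCA, TGACATCA). The RefSeq promoter windows (build GRCm38.p6, 250 bases before to 50 after the gene start) were searched for these letters on both strands. No match of one motif overlapped a match of another. Of the 9 members with a window in the table, 2 (Sprr1a and Lif) held the AP-1 letters, 3 (Jun, Sprr1a and Sox11) held TGACATCA and 0 held TGACGTCA. Among all 32851 windows of this length the shares were 7.81%, 3.62% and 1.79%. The windows of Jun, Sprr1a and Lif are shown because Jun encodes one of the factors and the other two are the members that hold AP-1 letters. They lie at chr4:95052173-95052472 (minus strand), chr3:92485832-92486131 (minus strand) and chr11:4257318-4257617 (plus strand), and capitals mark the matches.
Jun: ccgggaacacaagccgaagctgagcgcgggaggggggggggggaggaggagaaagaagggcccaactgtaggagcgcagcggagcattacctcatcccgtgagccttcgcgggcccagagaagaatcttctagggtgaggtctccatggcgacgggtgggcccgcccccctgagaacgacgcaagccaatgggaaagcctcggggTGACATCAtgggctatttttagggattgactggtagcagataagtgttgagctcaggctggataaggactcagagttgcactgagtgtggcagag
Sprr1a: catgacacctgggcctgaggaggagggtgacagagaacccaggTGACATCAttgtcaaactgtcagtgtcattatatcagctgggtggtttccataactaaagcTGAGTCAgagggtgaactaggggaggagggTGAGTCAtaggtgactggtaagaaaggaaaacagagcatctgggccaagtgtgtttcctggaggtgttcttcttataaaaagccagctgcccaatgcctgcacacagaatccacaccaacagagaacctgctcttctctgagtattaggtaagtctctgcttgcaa
Lif: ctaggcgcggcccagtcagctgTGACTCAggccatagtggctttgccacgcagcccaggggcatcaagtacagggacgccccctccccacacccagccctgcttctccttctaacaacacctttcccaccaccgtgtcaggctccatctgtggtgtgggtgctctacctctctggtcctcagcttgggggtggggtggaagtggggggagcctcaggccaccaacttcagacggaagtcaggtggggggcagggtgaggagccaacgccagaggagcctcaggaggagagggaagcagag
Counted from the gene start, the match in Jun begins at −45. In Sprr1a the AP-1 letters begin at −146 and −116 and TGACATCA at −207, and in Lif the AP-1 letters begin at −228. A match describes the letters and is not evidence that a factor bound there.

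Libraries held 74530860 to 92513887 gene counts. Wildtype replicate 3 stood apart from the rest, with correlations of 0.958 to 0.965 to the other libraries (log2 CPM over genes, which are not independent replicates), and knockout replicates 2 and 3 were the closest pair, at 0.993. Knockout replicate 1 correlated with them at 0.970 and 0.972, and with wildtype replicate 1 at 0.987. Summed neuron markers were at 13923 to 15804 CPM in the knockout libraries (counts per 1000000 counts of the library, after TMM scaling), against 14325 to 14823 CPM in wildtype replicates 1 and 2 and 8299 CPM in wildtype replicate 3. The markers of neurons and of Schwann cells were abundant in every library, with Snap25, a synaptic vesicle release protein, at 3224 ± 356 CPM in knockout nerve and 2683 ± 1004 CPM in wildtype nerve (SD, n = 3 each), and Schwann cell markers summing to 11342 to 17203 CPM in knockout and 14531 to 20933 CPM in wildtype nerve. Vcan was at 5.44, 2.70 and 2.88 CPM in the knockout libraries, against 8.36, 9.61 and 7.32 CPM in the wildtype libraries. The groups did not overlap, but the difference did not pass over all genes (log2 fold change −1.20, SE 0.32; adjusted p = 0.558 in edgeR's quasi-likelihood test, Benjamini-Hochberg over all genes).

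No injury gene passed the test for a difference between the genotypes. Of the 10 genes, 9 passed the filter on low counts and were tested among 16722 genes, and 0 were called by edgeR at an adjusted p under 0.05, where 0.138% of all genes tested were called, 0.0658% as higher and 0.0718% as lower in knockout. At an unadjusted p under 0.05 there was 1, Sprr1a, against 5.2% of all genes. DESeq2 gave an adjusted p for 8 of the 10, all but Gal and Ecel1, and called 0 of them, against 1.44% of all genes with an adjusted p. Of the 9 members with a DESeq2 p-value, 1 was under 0.05 unadjusted, again Sprr1a, against 5.88% of all genes. The knockout and wildtype libraries did not overlap for 1 member, the same gene, against 10.3% of all genes tested, 5.42% with knockout higher and 4.93% with knockout lower. Of the 9 fold changes 8 were above 0, where 48.9% of all genes tested were above 0. The members share the same 6 libraries, so their signs are not independent observations. Gdnf was near 0 (0.0056), and the signs of Jun, Gap43, Gdnf and Ecel1 turned in some fits that left out a library. The median of the 9 was 0.17 on the log2 scale, against −0.0061 over all genes tested. It was 0.39 without knockout replicate 1, 0.36 without wildtype replicate 2, 0.34 without wildtype replicate 3 and 0.10 without knockout replicate 2. Sprr1a passed the filter only through the knockout libraries, so neither figure covers all members alike. With no filter the median of all 10 was 0.14.

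**Figure D1:**
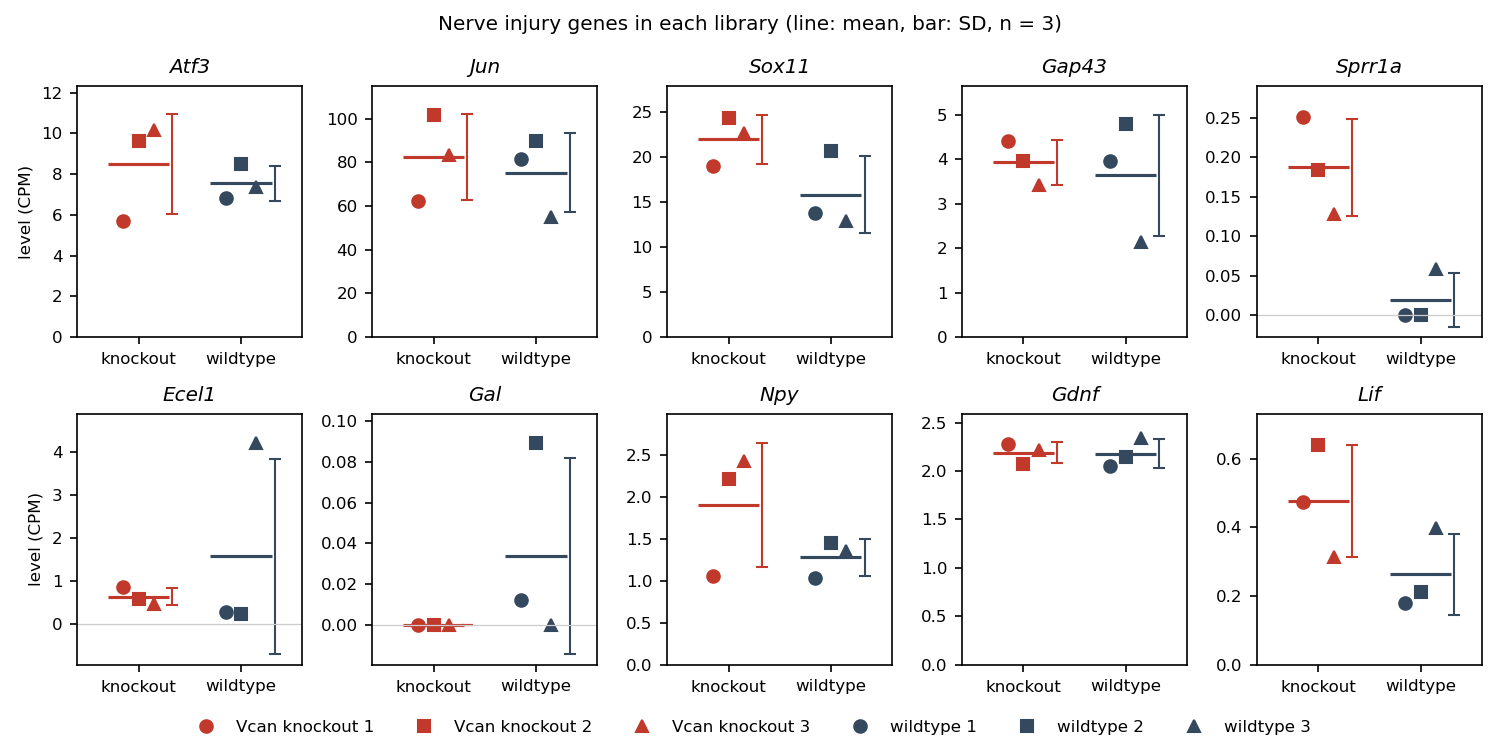
Level of each injury gene (CPM, vertical axes of their own scale) in the 3 Vcan knockout and 3 wildtype libraries, with the group mean as a line and the SD as a bar. The groups overlap for every gene except Sprr1a, and wildtype replicate 3 (triangle) is far above the rest for Ecel1, at 4.20 CPM.

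Expressed per kilobase of exon, so that genes can be compared, the 10 levels covered a wide range. Jun was highest, at 17.2 to 31.9 CPM per kilobase over the 6 libraries with a mean of 24.7, higher than 87.1% of the 15918 tested genes that have an exon length. Its range did not overlap that of the next gene. Atf3 (mean 3.73 CPM per kilobase), Npy (2.80), Gap43 (2.49) and Sox11 (2.28) followed, and each overlapped its neighbour in this order. Gdnf came next at 0.594 CPM per kilobase, below Sox11 with no overlap. Ecel1 (0.314), Sprr1a (0.128), Lif (0.0849) and Gal (0.0214) were the lowest, with neighbouring ranges that overlapped.

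Atf3 encodes a stress-induced factor that is a widely used marker of injured neurons (chromosome 1, 191170296 to 191183333, minus strand, GRCm38). Its level was 5.69, 9.63 and 10.2 CPM in knockout nerve, against 6.82, 8.49 and 7.37 CPM in wildtype nerve. The knockout libraries held both the lowest and the highest value, so they enclosed the wildtype range. On the log2 scale the fold change was 0.17 (SE 0.27, 95% interval −0.46 to 0.80; edgeR adjusted p = 1.00), an interval of 0.726-fold to 1.74-fold. It was 0.39 without knockout replicate 1, 0.064 without knockout replicate 2, 0.010 without knockout replicate 3, 0.10 without wildtype replicate 1 and 0.26 without wildtype replicate 2. The gene with the most similar profile over the 6 libraries was Vegfb, a growth factor of the VEGF family, with a root mean square difference of 0.028 on the log2 scale after centring, against a spread of 0.27 for Atf3 itself, out of 12255 genes compared.

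Jun encodes c-Jun, an AP-1 factor of both the neuronal and the Schwann cell response (chromosome 4, 95049036 to 95052222, minus strand). It was at 62.2, 102 and 83.2 CPM in knockout nerve, against 81.4, 89.7 and 54.9 CPM in wildtype nerve. The lowest value belonged to wildtype replicate 3 and the next to knockout replicate 1, and the groups overlapped. The difference was 0.13 on the log2 scale (SE 0.25, 95% interval −0.46 to 0.72). Without wildtype replicate 3 it was −0.063, and without knockout replicate 2 it was −0.056. An antisense gene, Junos, overlaps Jun on the opposite strand, and whether strand was used in counting is not given in the sources used here, so reads of the pair cannot be told apart. The most similar profile was that of Gpr85, an orphan receptor of the nervous system (root mean square difference 0.059).

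Sox11 encodes a factor of developing neurons that is switched on again after axon injury (chromosome 12, 27334268 to 27342718, minus strand). Its level was 19.0, 24.4 and 22.7 CPM in knockout nerve, against 13.8, 20.7 and 12.9 CPM in wildtype nerve. Wildtype replicate 2 lay between knockout replicates 1 and 3, and the other wildtype libraries lay below all knockout libraries. Knockout over wildtype, the log2 ratio was 0.48 (SE 0.22, 95% interval −0.05 to 1.01) and did not pass over all genes (unadjusted p = 0.0713, edgeR adjusted p = 1.00), and it was 0.34 to 0.72 when each library was left out in turn, the highest without wildtype replicate 2. The most similar profile was that of Snx22, a sorting nexin (root mean square difference 0.078).

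Among the growth genes, Gap43 encodes a protein of growth cones that is abundant in growing axons (chromosome 16, 42248552 to 42340651, minus strand). It was at 4.42, 3.95 and 3.42 CPM in knockout nerve, against 3.96, 4.81 and 2.15 CPM in wildtype nerve. Wildtype libraries held the highest and the lowest value. The log2 fold change of 0.11 (SE 0.33, 95% interval −0.68 to 0.90) became −0.16 without wildtype replicate 3, the library with the lowest summed neuron markers. The profile most like that of Gap43 belonged to Gjb1, the connexin of myelinating Schwann cells (root mean square difference 0.070).

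Sprr1a encodes a small proline-rich protein best known from the cornified layer of skin, and it is induced in neurons after axon injury (chromosome 3, 92483954 to 92485881, minus strand). Its level was 0.250, 0.184 and 0.128 CPM in knockout nerve (19, 17 and 11 counts), against 0, 0 and 0.0585 CPM in wildtype nerve (0, 0 and 5 counts). All knockout libraries were above all wildtype libraries. Over the group sums of 47 and 5 counts the ratio of knockout to wildtype was 9.56 (exact binomial 95% limits 3.82 and 30.8, covering counting error alone). In edgeR the log2 fold change was 3.18 (SE 1.13) and failed the correction (unadjusted p = 0.0276, adjusted p = 0.827, higher in 3 of 3 knockout libraries), and the DESeq2 adjusted p was 0.546. It was 7.01 (edgeR adjusted p = 0.311) without wildtype replicate 3, which leaves wildtype libraries with no count, a value that depends on the fit and is no bound.

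Markers of squamous epithelium, the other tissue known for Sprr1a, were few. Of 11 such markers 4 passed the filter on low counts, Ivl and Dsg1a had no count in any library, and the summed level was 16.04 to 17.5 CPM in knockout and 11.3 to 11.9 CPM in wildtype nerve. Most of that sum came from Krt10, a keratin, at 9.10 ± 1.71 CPM in knockout and 4.70 ± 0.832 CPM in wildtype nerve, and from Sfn, a 14-3-3 protein of epithelia, at 5.69 ± 0.4996 CPM in knockout and 5.77 ± 1.15 CPM in wildtype nerve (SD, n = 3 each). Krt10 was called by DESeq2 and not by edgeR (edgeR adjusted p = 0.435). Among the scarcer keratins, named after their values were seen, Krt5 was at 1.63, 0.477 and 0 CPM in knockout nerve, against 0, 0 and 0.0819 CPM in wildtype nerve. Krt14 was at 0.606, 1.03 and 0.0464 CPM in knockout nerve, against 0.0240, 0.145 and 0.936 CPM in wildtype nerve, and Krt4 at 0.329, 0.0433 and 0 CPM in knockout nerve, against 0, 0 and 0.491 CPM in wildtype nerve. Wildtype replicate 3, the only wildtype library with Sprr1a counts, was the highest wildtype library for all 3 of these keratins, and knockout replicate 3, the lowest knockout library for Sprr1a, was the lowest knockout library for them. The scarce markers Krt1, Krt13, Lor and Dsg3 were highest in wildtype replicate 1 or 2 among the wildtype libraries. Among the knockout libraries, Krt1 and Lor were lowest in replicate 3. Krt10 and Sfn, which made up most of the summed level, went the other way and were highest in knockout replicate 3. Of the wildtype libraries, replicate 2 was highest for Krt10 and replicate 1 for Sfn. The 5 related genes listed, Sprr1b, Sprr2a1, Sprr2d, Sprr2f and Sprr3, had 0 counts in all 6 libraries. The part of epithelial cells in the Sprr1a counts was not tested.

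Ecel1 encodes a membrane metallopeptidase, also called DINE, that is induced in damaged neurons (chromosome 1, 87142874 to 87157085, minus strand). Its level was 0.844, 0.585 and 0.464 CPM in knockout nerve, against 0.276, 0.223 and 4.20 CPM in wildtype nerve. Wildtype replicate 3, with 359 counts, was above every other library, while the other wildtype libraries lay below all 3 knockout libraries. The log2 fold change was −1.31 (SE 1.12; edgeR adjusted p = 1.00), and without wildtype replicate 3 it was 1.33 (edgeR adjusted p = 0.618). DESeq2 gave no p-value for this gene, and the authors' deposited table gives none either, at a log2 fold change of −0.31 on its own scale.

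The same wildtype library was the highest for markers of hair cells, the sensory cells of the cochlea that the nerve contacts. Their summed level was 131, 52.8 and 64.4 CPM in knockout nerve, against 78.9, 51.7 and 220 CPM in wildtype nerve. Of the 8 hair cell markers 7 passed the filter, and Atoh1, a factor of developing hair cells, had no count in any library. Otof, the hair cell calcium sensor otoferlin, was at 43.9, 21.8 and 30.0 CPM in knockout nerve, against 24.6, 20.3 and 84.5 CPM in wildtype nerve, and Myo7a, an unconventional myosin of hair cells, was at 38.8, 24.0 and 23.7 CPM in knockout nerve, against 29.4, 21.5 and 40.1 CPM in wildtype nerve. The gene with the profile most like that of Ecel1 was Tmem184a, a transmembrane protein, at 5.14, 4.04 and 3.46 CPM in knockout nerve, against 2.76, 3.34 and 23.4 CPM in wildtype nerve (root mean square difference 0.15, against a spread of 0.91 for Ecel1). The part of hair cells or other cochlear tissue in the Ecel1 value was not tested.

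**Figure D2:**
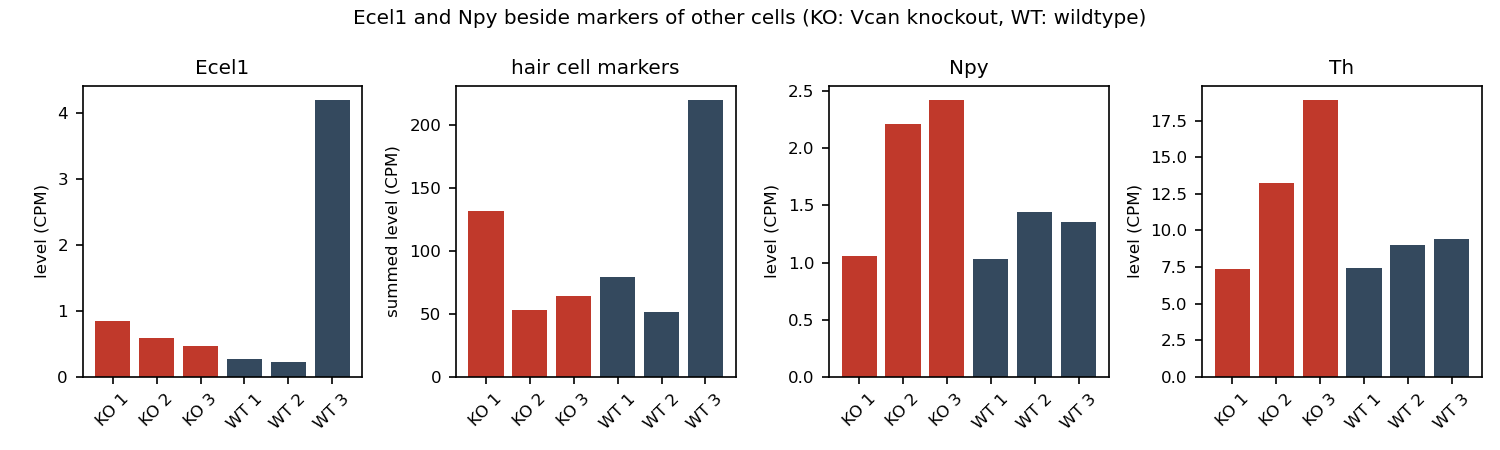
Bars give, for each of the 3 Vcan knockout (KO) and 3 wildtype (WT) libraries, the level in CPM of Ecel1, of 8 hair cell markers summed, of Npy and of Th. Ecel1 and the hair cell sum are highest in wildtype replicate 3 (4.20 and 220 CPM), and Npy and Th are highest in knockout replicates 2 and 3.

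Of the neuropeptide genes, Gal encodes galanin, which is scarce in most intact sensory neurons and is induced strongly by axotomy (chromosome 19, 3409915 to 3414544, minus strand). It had 0 counts in all 3 knockout libraries, against 1, 8 and 0 counts in the wildtype libraries. A count of 0 allows up to 0.0325 to 0.0395 CPM in a knockout library (3 counts, for counting error only), and wildtype replicate 2 was at 0.0890 CPM. Of the 9 wildtype counts 8 came from that library, and no fold is given. Gal failed the filter on low counts and was not tested, and galanin transcripts were at or near the limit of detection in both genotypes.

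Npy encodes neuropeptide Y, which sensory neurons induce after injury and which sympathetic neurons make at rest (chromosome 6, 49822710 to 49829507, plus strand). Its level was 1.05, 2.21 and 2.43 CPM in knockout nerve, against 1.03, 1.45 and 1.36 CPM in wildtype nerve. Knockout replicates 2 and 3 were above all wildtype libraries, and knockout replicate 1 was at the wildtype minimum. The log2 fold change was 0.57 (SE 0.39, 95% interval −0.36 to 1.49; edgeR adjusted p = 1.00), with 0.86 without knockout replicate 1 and 0.34 without knockout replicate 3. The most similar profile was that of D030045P18Rik (root mean square difference 0.047).

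Th, the tyrosine hydroxylase of sympathetic and other catecholamine neurons, stood in a like order, at 7.34, 13.2 and 18.9 CPM in knockout nerve, against 7.44, 9.02 and 9.38 CPM in wildtype nerve. Of the 6 sympathetic markers Th alone passed the filter. Dbh, the enzyme that defines noradrenergic cells, was at 0, 0.0758 and 0.0928 CPM in knockout nerve and had no count in the wildtype libraries. Slc6a2 and Phox2a, also near 0, stood in other orders. Slc6a2 was at 0.105, 0 and 0 CPM in knockout nerve, against 0.0480, 0 and 0.0351 CPM in wildtype nerve. Phox2a was at 0.0132, 0.119 and 0 CPM in knockout nerve, against 0, 0.0668 and 0 CPM in wildtype nerve. Hand2 had no count in any library. Markers of marrow cells summed to 52.4, 107 and 98.4 CPM in knockout nerve, against 35.3, 43.0 and 56.0 CPM in wildtype nerve. Of the 12 listed 11 were tested, with 10 fold changes above 0, where 48.9% of all genes tested were above 0. Of these markers 0 were called by edgeR, and DESeq2 called the platelet chemokine gene Ppbp. The markers in the sum did not share 1 order over the knockout libraries. Ppbp was at 18.2, 5.19 and 10.5 CPM there and the platelet gene Itga2b at 21.7, 16.4 and 18.0 CPM, both highest in replicate 1. The neutrophil gene S100a9 was at 1.15, 29.0 and 20.2 CPM, lowest in replicate 1, as Npy was. The part of these cells in the Npy level was not tested.

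Gdnf encodes glial cell line-derived neurotrophic factor, a survival factor that Schwann cells release after injury (chromosome 15, 7810048 to 7837580, plus strand). It was the steadiest member, at 2.28, 2.07 and 2.22 CPM in knockout nerve, against 2.05, 2.15 and 2.34 CPM in wildtype nerve. The highest library was 1.14 times the lowest, where the same ratio was 1.79 for Atf3 and 18.9 for Ecel1. Between the genotypes the log2 fold change was 0.0056 (SE 0.23), with a 95% interval of 0.684-fold to 1.47-fold. Its sign turned in 4 of the 6 fits that left out a library, within −0.036 to 0.053. The most similar profile was that of Tnfaip1 (root mean square difference 0.023).

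Lif encodes leukemia inhibitory factor, a cytokine of injured nerve that acts on neurons and draws in macrophages (chromosome 11, 4257568 to 4272514, plus strand). It was at 0.474, 0.639 and 0.313 CPM in knockout nerve (36, 59 and 27 counts), against 0.180, 0.211 and 0.398 CPM in wildtype nerve (15, 19 and 34 counts). Wildtype replicate 3 lay between knockout replicates 1 and 3, and the other wildtype libraries lay below all knockout libraries. The log2 fold change was 0.85 (SE 0.50, 95% interval −0.34 to 2.05; unadjusted p = 0.135, edgeR adjusted p = 1.00), and it was 1.27 without wildtype replicate 3 (edgeR adjusted p = 0.686).

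**Figure D3:**
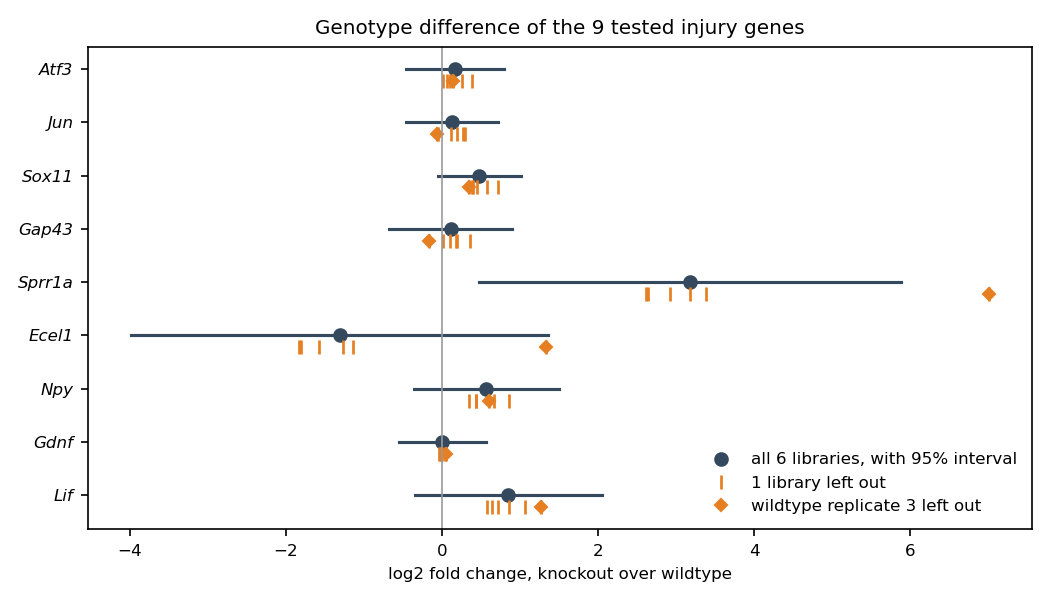
Log2 fold change of knockout over wildtype for the 9 tested injury genes, with all 6 libraries (dot, with its 95% interval from edgeR) and with 1 library left out (ticks; the diamond leaves out wildtype replicate 3). The intervals of all but Sprr1a include 0, and Ecel1 moves between −1.31 and 1.33 when wildtype replicate 3 is left out.

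The receptors of these ligands were present in the nerve at very different levels. Of 13 receptor genes 8 were tested, and 0 were called (edgeR), with 2 fold changes above 0, 6 below 0 and a median of −0.26 on the log2 scale. LIF signals through LIFR and gp130: Lifr was at 196 ± 30.8 CPM in knockout and 170 ± 24.7 CPM in wildtype nerve, and Il6st, the gp130 gene, at 254 ± 152 CPM in knockout and 309 ± 57.9 CPM in wildtype nerve (SD, n = 3 each). Il6st was at 430 CPM in knockout replicate 1 and at 169 and 165 CPM in knockout replicates 2 and 3, so the knockout libraries enclosed the wildtype range.

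GDNF binds GFRα1 and signals through the kinase RET. Gfra1 was at 83.5, 68.7 and 81.1 CPM in knockout nerve, against 91.6, 103 and 149 CPM in wildtype nerve. The groups did not overlap, where 10.3% of all genes tested did not overlap, 4.93% with knockout lower. The difference did not pass over all genes (log2 fold change −0.56, SE 0.21, edgeR unadjusted p = 0.0317, adjusted p = 0.850). Ret was at 5.22 ± 2.13 CPM in knockout and 7.03 ± 3.57 CPM in wildtype nerve, and Gfra2, the neurturin receptor, at 3.81 ± 1.25 CPM in knockout and 4.16 ± 1.72 CPM in wildtype nerve (SD, n = 3 each). The other receptor under an unadjusted p of 0.05, Gfra3, the artemin receptor, was named after its values were seen. It was at 0.382, 0.195 and 0.255 CPM in knockout nerve, against 0.0240, 0.122 and 0.0702 CPM in wildtype nerve (log2 fold change 1.91, SE 0.66, edgeR adjusted p = 0.803). Like Sprr1a, Gfra3 was scarce in wildtype nerve, and it passed the filter on low counts mainly through the knockout libraries.

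Receptors of the neuropeptides were scarce. Npy1r, the Y1 receptor, was at 3.30 ± 0.586 CPM in knockout and 3.91 ± 0.422 CPM in wildtype nerve (SD, n = 3 each), and Npy2r, Npy4r, Npy5r, Galr1 and Galr3 failed the filter on low counts. Galr2, a galanin receptor named after its values were seen, was at 0.316, 0.0758 and 0.104 CPM in knockout nerve, against 0.312, 0.345 and 0.363 CPM in wildtype nerve, so knockout replicate 1 lay within the wildtype range.

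Genes of the kinase pathway of c-Jun and partner factors of c-Jun and ATF3 did not pass in edgeR. DLK (Map3k12) and the JNK kinases carry the injury signal to c-Jun, and the list of 11 genes also holds Bbc3, Hrk and Bcl2l11, proapoptotic genes downstream of JNK. None was called, with a median log2 fold change of 0.021 over the 11. Mapk8ip3, the JNK scaffold of axonal transport, was at 505 ± 119 CPM in knockout and 497 ± 159 CPM in wildtype nerve, and Mapk10, the neuronal JNK3 gene, at 367 ± 57.6 CPM in knockout and 331 ± 70.1 CPM in wildtype nerve (SD, n = 3 each). Named after their values were seen, Bbc3 was at 1.98, 2.52 and 2.37 CPM in knockout nerve, against 1.52, 1.803 and 1.42 CPM in wildtype nerve, and Bcl2l11 at 30.1, 40.8 and 31.6 CPM in knockout nerve, against 26.1, 29.9 and 15.7 CPM in wildtype nerve. Neither overlapped between the groups, where 10.3% of all genes tested did not overlap, 5.42% with knockout higher. Neither was under an unadjusted p of 0.05 (0.0806 and 0.0907 in edgeR), and Hrk overlapped. Of the AP-1 and ATF partners 11 of 12 were tested, with 0 called and a median of 0.013. Atf4, the factor of the integrated stress response, was at 155 ± 27.4 CPM in knockout and 154 ± 15.6 CPM in wildtype nerve, and Jund at 107 ± 29.2 CPM in knockout and 97.2 ± 22.3 CPM in wildtype nerve (SD, n = 3 each).

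Atf3 and Jun are also early response genes, which handling of tissue can induce. Of the 12 immediate early genes listed 0 were called, with 6 fold changes above 0 and 6 below. Under an unadjusted p of 0.05 in edgeR there was 1, Egr2, against 5.2% of all genes tested. Their summed level was 204, 304 and 369 CPM in knockout nerve, against 224, 259 and 317 CPM in wildtype nerve, lowest in replicate 1 of each group. Atf3 was also lowest there in both groups, and Jun was in the knockout group but was lowest in replicate 3 among the wildtype libraries. Egr2, an early response gene that is also a factor of myelinating Schwann cells, was at 106 ± 38.4 CPM in knockout and 67.0 ± 2.43 CPM in wildtype nerve, and Dusp1, a phosphatase, at 45.8 ± 13.3 CPM in knockout and 54.9 ± 14.3 CPM in wildtype nerve (SD, n = 3 each). The part of tissue handling in the Atf3 and Jun levels was not tested.

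Other genes of the regeneration program did not pass either, in edgeR. Of the 10 further injury transcription factor genes 0 were called, with 3 fold changes above 0, 7 below 0 and a median of −0.17. Stat3, the factor activated by LIF signalling, was at 87.6 ± 13.4 CPM in knockout and 105 ± 14.9 CPM in wildtype nerve, and Tcf4, a bHLH factor, at 93.5 ± 3.17 CPM in knockout and 108 ± 8.12 CPM in wildtype nerve (SD, n = 3 each). Of the 22 axon outgrowth genes 0 were called and 4 were under an unadjusted p of 0.05, where 5.2% of all genes tested were, with a median of −0.085. These 4 were named after their values were seen. Basp1, a growth cone protein, had a log2 fold change of 0.96 (SE 0.35). Values were below 0 for Tubb6, a beta tubulin (−0.65, SE 0.21), Hspb1, a small heat shock protein (−0.58, SE 0.22), and Cacna2d1, a calcium channel subunit (−0.54, SE 0.20). In the order named, the edgeR adjusted p-values were 0.843, 0.706, 0.875 and 0.842. The groups overlapped for Basp1 and Hspb1. They did not for Tubb6 and Cacna2d1, where 10.3% of all genes tested did not overlap, 4.93% with knockout lower. Tuba1a, an alpha tubulin of neurons, was at 683 ± 96.4 CPM in knockout and 720 ± 163 CPM in wildtype nerve, and Csrp1, an actin-binding LIM protein, at 309 ± 48.8 CPM in knockout and 357 ± 119 CPM in wildtype nerve (SD, n = 3 each).

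Of the 12 other injury neuropeptides and signals 7 were tested, with 0 called and a median log2 fold change of −0.74. Cck, named after its values were seen, was the 1 gene under an unadjusted p of 0.05 in edgeR. Its log2 fold change was −1.24 (SE 0.51, edgeR adjusted p = 0.937), where 5.2% of all genes tested were under that p. Csf1, which injured sensory neurons release to microglia, was at 23.4 ± 3.42 CPM in knockout and 29.4 ± 8.98 CPM in wildtype nerve (SD, n = 3 each). Tac1, the substance P precursor gene, was at 7.39, 0.0433 and 0.0348 CPM in knockout nerve, against 19.6, 10.2 and 0.175 CPM in wildtype nerve. It was thus high in 1 knockout and in 2 wildtype libraries and near 0 in the other 3, including wildtype replicate 3.

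Of the 20 repair Schwann cell genes 0 were called, with 14 fold changes above 0, 6 below 0 and a median of 0.060. Runx2, named after its values were seen, was the 1 gene under an unadjusted p of 0.05 in edgeR. Its log2 fold change was 0.59 (SE 0.23, edgeR adjusted p = 0.879), where 5.2% of all genes tested were under that p. Ncam1, an adhesion molecule of nonmyelinating and repair Schwann cells, was at 162 ± 27.2 CPM in knockout and 143 ± 33.8 CPM in wildtype nerve, and Ngfr, the p75 neurotrophin receptor of the same cells, at 109 ± 25.0 CPM in knockout and 105 ± 34.9 CPM in wildtype nerve (SD, n = 3 each). Of the ligands related to GDNF and LIF 7 of 9 were tested and 0 called. Under an unadjusted p of 0.05 in edgeR there was 1, Cntf, against 5.2% of all genes tested. It was named after its values were seen and was scarce, with a mean of 0.153 CPM (log2 fold change −1.48, SE 0.56, edgeR adjusted p = 0.875). Ctf1, the cardiotrophin 1 gene of the LIF family, was at 8.08 ± 2.04 CPM in knockout and 8.22 ± 2.26 CPM in wildtype nerve, and Nrtn, the neurturin gene of the GDNF family, at 2.65 ± 0.185 CPM in knockout and 3.23 ± 1.76 CPM in wildtype nerve (SD, n = 3 each).

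Among relatives of Ecel1 and enzymes that process neuropeptides, 7 of the 12 genes listed with the Sprr genes were tested and 0 called. Cpe, carboxypeptidase E, was at 594 ± 52.8 CPM in knockout and 602 ± 113 CPM in wildtype nerve, and Mme, the metallopeptidase neprilysin, at 190 ± 41.4 CPM in knockout and 215 ± 15.1 CPM in wildtype nerve (SD, n = 3 each).

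**Figure D4:**
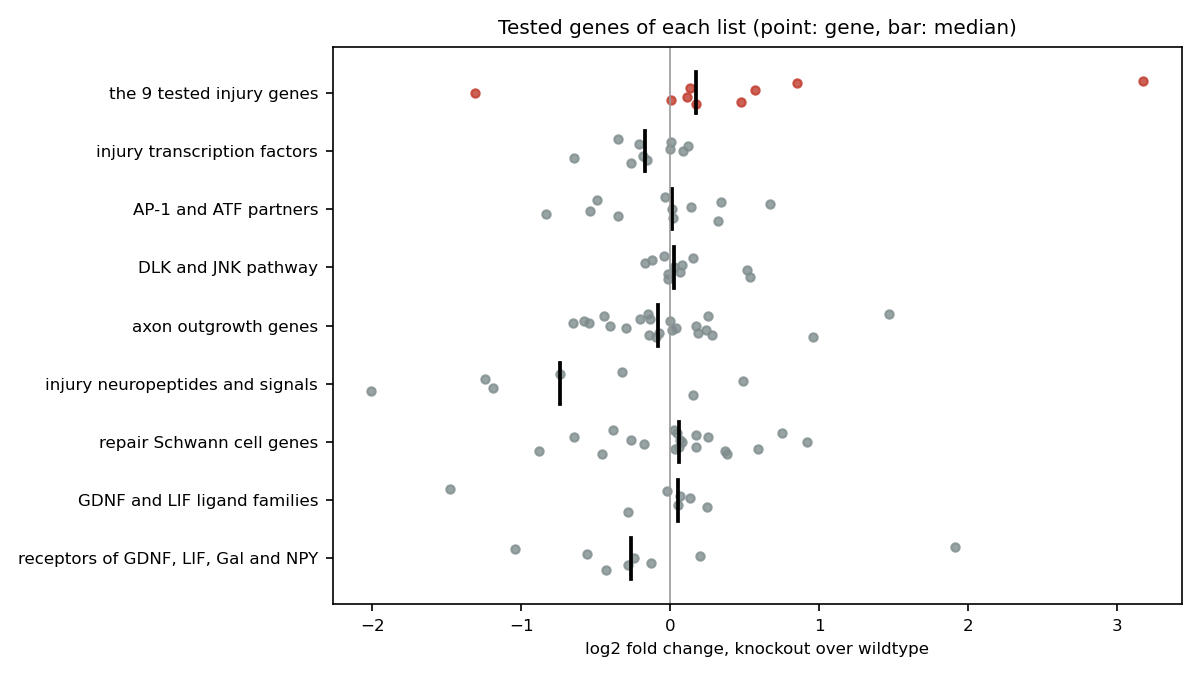
Log2 fold change of knockout over wildtype (horizontal axis) for each tested gene of the injury set and of 8 related lists, with the list median as a bar. No gene shown passed at an adjusted p under 0.05 in edgeR, and the median is 0.17 for the injury genes, −0.17 for further injury transcription factors and 0.060 for repair Schwann cell genes.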

How the data were processed

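Gene counts of 6 auditory nerve libraries came from 1 deposited table. The submitters' processing notes name HTSeq, DESeq2 and the build mm10. The deposited counts are whole numbers whose totals differ between libraries. For the aligner, versions, strandedness and multiply mapping reads, nothing is given in the sources used here. The table also holds, per the file headers, the authors' own mean normalised signal, log2 fold change with its error, test score and p-values, cited only where the text names the authors' deposited table. Of its 24067 rows, 5 symbols on 2 rows with identical counts were joined, and 3878 symbols had 0 counts everywhere.

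Counts were tested in R 4.3.3 with edgeR 4.0.16 (filterByExpr, TMM factors 0.964 to 1.02, robust quasi-likelihood F test, 2-sided, Benjamini-Hochberg over 16722 genes, threshold 0.05, no covariate), and with DESeq2 1.42.0 as an alternative. Standard errors are the fold change divided by the square root of F, and 95% intervals use the matching t quantile. The code was tested on simulated counts. Replicate libraries differed beyond sampling noise (chi-square per degree of freedom at least 40.9), so all 6 were counted. The edgeR intervals include the spread between libraries. The exact binomial limits for Sprr1a and the floors (3 counts) cover counting error only. Positions are RefSeq GRCm38.p6 and exon lengths GENCODE vM21, both the mm10 assembly.

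Members, 20 further gene lists and motifs were chosen with earlier results of these data known. Besides the members, the text names the 2 genes of highest mean CPM from each list it describes, receptors with a mean of at least 1 CPM, and, for members of at least 1 CPM, the gene (mean at least 5 CPM) with the closest centred log2(CPM + 0.5) profile. Genes outside this rule are named as chosen after their values were seen, or because a list's defining markers are at or near 0. Values of 2 listed marker genes are not reported here. Samples were grouped by genotype in the labels.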

Additional observations from a re-analysis of the deposited data

How the results depend on the processing

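No injury gene with an adjusted p was called under any of the 11 alternatives (DESeq2 gave none for Gal and Ecel1). Over all genes the count of calls was 23 with edgeR, 256 with DESeq2, and 3 to 14 when a library was left out, 14 without knockout replicate 1 and 3 without knockout replicate 2 or wildtype replicate 2. The replicate numbers did not pair the libraries throughout. Same-numbered deviations correlated at 0.48 and 0.32 for replicates 1 and 2, each the best match of its knockout library. For replicate 3 the value was −0.16, and knockout replicate 3 correlated best with wildtype replicate 2 (0.48). With 3 libraries per group these values cannot settle whether the numbers mark shared preparation, and no label says so. With the replicate block edgeR called 3 genes, and Ecel1 turned to 0.12 on the log2 scale. Leaving out each library in turn, the median of the tested injury genes ranged from 0.10 to 0.39, and the log2 fold change from −0.063 to 0.30 for Jun, −0.16 to 0.36 for Gap43, −0.036 to 0.053 for Gdnf, −1.83 to 1.33 for Ecel1 and 2.61 to 7.01 for Sprr1a. With no filter on low counts Gdnf was at −0.0045. Atf3 (0.010 to 0.39 with a library left out), Npy (0.34 to 0.86), Lif (0.57 to 1.27), Sox11 (0.34 to 0.72) and Sprr1a kept their sign in all 11. Of the genes on the further lists edgeR called 0 and DESeq2 3, namely Aqp4, Krt10 and Ppbp. The cause of these differences between settings was not tested. Depth limits Gal, Sprr1a and Lif, with 9, 52 and 190 counts over all libraries.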

Other observations

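Of the other cell types listed, 0 markers were called by edgeR. Astrocyte and oligodendrocyte markers had fold changes below 0 for 8 of 8 genes each, with medians of −0.69 and −0.77 on the log2 scale. Over all genes tested, 48.9% of fold changes were above 0. Markers of a cell type share the same libraries, so they are not independent observations. Gfap, an intermediate filament of astrocytes that some Schwann cells also make, was at 223 ± 69.5 CPM in knockout and 371 ± 138 CPM in wildtype nerve, and Slc1a3, a glial glutamate transporter, at 144 ± 21.0 CPM in knockout and 161 ± 6.66 CPM in wildtype nerve (SD, n = 3 each). DESeq2 called Aqp4, the water channel of astrocytes. Cldn11, a claudin of central myelin, was at 240 ± 105 CPM in knockout and 331 ± 103 CPM in wildtype nerve, and Mobp, a central myelin protein, at 113 ± 15.02 CPM in knockout and 209 ± 62.8 CPM in wildtype nerve (SD, n = 3 each).

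Macrophage markers had 7 of 9 fold changes below 0 (median −0.25), with Csf1r, the CSF1 receptor, at 52.0 ± 10.5 CPM in knockout and 67.5 ± 3.97 CPM in wildtype nerve, and C1qb, a complement subunit, at 25.6 ± 2.68 CPM in knockout and 36.0 ± 4.83 CPM in wildtype nerve (SD, n = 3 each). Schwann cell markers had 8 of 12 below 0 (median −0.10) and neuron markers 10 of 15 above 0 (median 0.089). Bone cell markers had 6 of 8 above 0 (median 0.070), with Dmp1, a matrix protein of osteocytes, at 93.7 ± 19.1 CPM in knockout and 95.9 ± 42.9 CPM in wildtype nerve, and Ibsp, a bone sialoprotein, at 91.1 ± 39.6 CPM in knockout and 36.7 ± 16.9 CPM in wildtype nerve (SD, n = 3 each). The most abundant gene of the neuron list, Calb2, the calcium-binding protein calretinin, was at 3921 ± 1055 CPM in knockout and 2540.4 ± 536 CPM in wildtype nerve, and that of the Schwann cell list, Mbp, a myelin protein, at 3783 ± 655 CPM in knockout and 4540 ± 1630 CPM in wildtype nerve (SD, n = 3 each). Of the marrow markers, Itga2b, a platelet integrin, was at 18.7 ± 2.72 CPM in knockout and 13.6 ± 1.34 CPM in wildtype nerve, and S100a9, a neutrophil protein, at 16.8 ± 14.2 CPM in knockout and 9.25 ± 3.98 CPM in wildtype nerve (SD, n = 3 each).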
